A study of Mus musculus with 26 samples.

Results

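Microglia are the resident macrophages of the brain, and in the embryo a small share of the macrophages sorted with them carries Ms4a7 and Mrc1. Here these Ms4a7-positive cells were described across 12 libraries of sorted cells from the embryonic somatosensory cortex. A cell was a member if it had at least 2 unique molecular identifiers (UMIs) of Csf1r and C1qa together, at least 2 UMIs of Ms4a7, at least 1 UMI of Mrc1 and fewer than 8 UMIs over Top2a, Mki67, Cenpf, Cenpe, Ube2c and Birc5, genes of dividing cells. After barcodes under 500 genes or over 20% mitochondrial UMIs were set aside, 37948 were left, of which 34884 had Csf1r or C1qa at that level and 1096 were members, 3.14% of the 34884. Another 513 cells passed the Ms4a7 and Mrc1 limits but had 8 or more UMIs of the division genes and were not members. The rest of the Csf1r or C1qa cells under that division limit, 25133 cells, are called other microglia below.

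The libraries came from C57Bl/6N wild-type embryos labelled E13 or E15, of mixed sex by the study's methods. Their mothers received saline or poly(I:C), a mimic of double-stranded viral RNA, by intraperitoneal injection at E12.5. Poly(I:C) is used to induce maternal immune activation (MIA). There were 3 libraries in each of the 4 groups, made with the droplet-based 3′ kit of 10x Genomics from dissected S1 cortex without meninges. Cells had been sorted as positive for Cd11b and Cx3cr1 and low in Cd45. Every value concerns cells that passed this gate, and cells high in Cd45 lay outside it. The study's methods describe the libraries as pools of several embryos, and the labels do not tie libraries to litters, so p-values measure the spread between these libraries. The same rule was also applied to 6 libraries of sorted P14 microglia of wild-type mice, 4 after saline and 2 after MIA. It was applied as well to 8 libraries of nuclei from E15 cortex of male embryos, 2 each for saline and MIA in wild-type and in Csf1r KO embryos.

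Barcodes were shared between libraries more often than random draws from the kit's barcodes give. Of 153 pairs among the 18 sorted libraries, 22 shared 20 or more barcodes, where chance gave at most 4.94 in any of these 22. E13 MIA replicate 2 shared 263 of its 375 barcodes (70.1%) and 22 of its 24 members with another library, and E13 MIA replicate 1 shared 48.6% of its barcodes and 12 of its 22 members. E13 MIA replicate 2 and E15 MIA replicate 3 shared 230 barcodes, with a correlation of 0.992 between their log UMI totals and a median profile correlation of 0.833 for the same barcode against 0.559 for the next barcode. This pair was among the most alike. Over the 22 pairs the correlation of log UMI totals ran from -0.867 to 0.998. The median profile correlation for the same barcode ran from 0.404 to 0.836. In all, 64 of the 1096 members carried a barcode that another sorted library also held. One further library stood apart: in E15 saline replicate 1, 31.3% of the Csf1r or C1qa cells had 8 or more division UMIs, against 7.30 to 10.9% in the other 5 E15 libraries. The total depth per library ran from 6160925 to 105751888 UMIs. Members were deeper than other microglia, with a median of 13994 against 9025 UMIs, and the gap was wider at E13 (20444 against 5374) than at E15 (11766 against 9453).

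As background, brain macrophages fall into microglia within the tissue and border-associated macrophages of the meninges, perivascular spaces and choroid plexus. Both depend on signalling through the receptor Csf1r. Border-associated macrophages are known for the scavenger and lectin receptors Mrc1, Lyve1 and Cd163, the platelet factor chemokine Pf4, the coagulation factor F13a1 and the tetraspanning membrane protein Ms4a7. Microglia are known for the purinergic receptor P2ry12, the transcription factor Sall1 and the secreted matrix protein Sparc.

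Summed over cells, the members held genes of border macrophages and genes of microglia, in part in different cells, since Lyve1, F13a1 and most Pf4 came from a minority described below. Since the rule chose the cells on Ms4a7 and Mrc1, all differences between members and other microglia are given as descriptions without a test. UMIs were summed over the cells of a class in each library and divided by that class's total (counts per 1e6 UMIs, CPM). Pf4, which the rule did not use, ranged from 223.9 to 2392 CPM in the members of the 12 libraries, with a median log2 ratio to other microglia of 5.71. In other microglia Pf4 ranged from 4.67 to 43.4 CPM, so the classes did not overlap. F13a1 stood at 330 ± 268 CPM (SD, n = 12 libraries) in members and 7.53 ± 15.6 CPM in other microglia. Lyve1, the hyaluronan receptor, stood at 215 ± 226 CPM in members and 1.89 ± 2.39 CPM in other microglia. These 3 genes varied widely between the members of the libraries, and Lyve1 spanned 32.4 to 798.2 CPM. The border macrophage list has 23 genes, Ms4a7 and Mrc1 of the rule among them, and 13 reached a mean of 50 CPM in either class. Ms4a7, Pf4, F13a1, Lyve1, Folr2 and Ednrb did so only through the members, so that being higher there was fixed by the limit, and nothing is read from the count. Over all 3048 genes at that level the median log2 ratio was -0.03, and 71 genes (2.33%) had a ratio over 1. Ms4a7 itself, used by the rule, stood at 497 ± 147 CPM against 5.31 ± 2.77 CPM, and Mrc1 at 1001 ± 383 CPM against 124 ± 29.4 CPM.

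Other Ms4a genes of the same cluster were also higher in members than in other microglia. Ms4a7 lies on the minus strand at chr19:11321039-11336146 (GRCm38) in a run of Ms4a genes. Ms4a6c, at chr19:11469366-11482192 on the plus strand, stood at 607 ± 100 CPM in members and 80.0 ± 25.1 CPM in other microglia, and 1034 of the 1096 members had at least 1 UMI. Ms4a6b stood at 471 ± 63.8 CPM against 154 ± 22.3 CPM, and Ms4a6d at 330 ± 61.2 CPM against 128 ± 17.2 CPM. The spread of these 3 genes over libraries was small beside that of Pf4, F13a1 and Lyve1. The genes nearer to Ms4a7 had fewer UMIs than these: Ms4a14 had 93 in all members, Ms4a4c 403 and Ms4a4a 399. Ms4a4a stood at 23.3 ± 9.87 CPM against 1.31 ± 0.942 CPM. Of the 19 Ms4a genes listed, Ms4a2, Ms4a3, Ms4a4d, Ms4a5, Ms4a10, Ms4a12, Ms4a13, Ms4a15 and Ms4a18 had 0 UMIs in all members. Ms4a6b, Ms4a6c and Ms4a6d are related in sequence, and reads that match several of them may have been divided or dropped in the authors' counting.

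Other genes with high ratios were Clec12a, an inhibitory lectin receptor (50.8 ± 15.0 against 2.96 ± 3.92 CPM), the integrin subunit Itga4 (89.4 ± 24.0 against 11.1 ± 4.94 CPM), the proton-sensing receptor Gpr65 (165 ± 52.9 against 24.2 ± 15.8 CPM) and Cybb, the catalytic subunit of the phagocyte NADPH oxidase (182 ± 39.4 against 31.3 ± 20.5 CPM). All 4 reached 50 CPM only through the members and were picked for their ratio, so that being higher there was fixed by the choice. Dab2, an endocytic adaptor, stood at 581 ± 320 against 97.7 ± 22.2 CPM. Stab1, a scavenger receptor, stood at 865 ± 235 against 250 ± 39.8 CPM, and the chemokine receptor Ccr1 at 238 ± 38.3 against 62.3 ± 16.1 CPM. Apoe, the main lipid carrier of the brain, was higher in members in 12 of 12 libraries, with a median log2 ratio of 1.67. The other genes of highest ratio, picked in the same way, were Cd36, Ednrb, Ifi207, Pxdc1 and Ccl24.

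**Figure D1:**
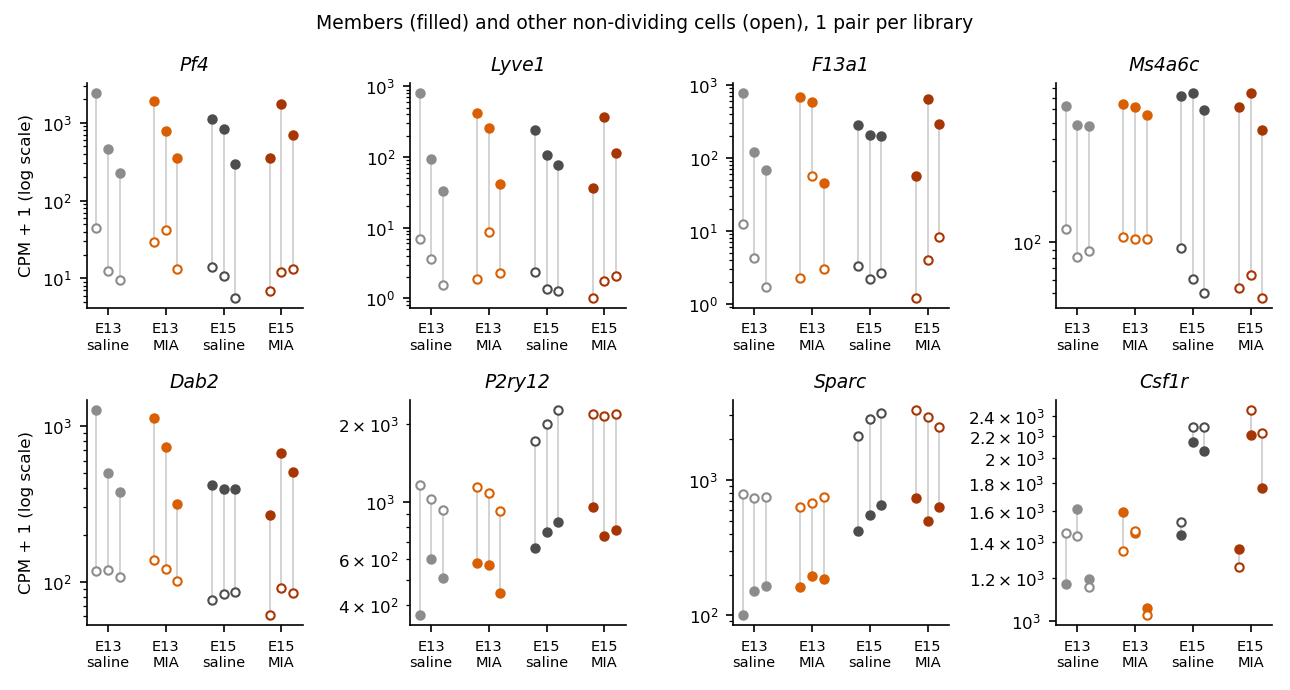
Level of 8 genes in members (filled) and other non-dividing microglia (open) of the same library, as CPM + 1 on a log axis, joined by a line per library and set out by group. Pf4, Lyve1, F13a1, Ms4a6c and Dab2 lie higher in members in all 12 libraries, P2ry12 and Sparc lie lower in all 12, and Csf1r is higher in 5 and lower in 7.

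The microglial side was lower but present. P2ry12 stood at 650 ± 170 CPM in members and 1563 ± 563 CPM in other microglia, lower in 12 of 12 libraries, and 1049 of 1096 members had at least 1 UMI of it. Sparc had a wider gap, with 368 ± 234 against 1746 ± 1114 CPM and a median log2 ratio of -2.21. Sall1, which keeps microglial identity, stood at 44.9 ± 16.5 against 156 ± 46.5 CPM. Of the 20 microglial identity genes, 18 reached 50 CPM in either class, Sall1 and Slc2a5 only through the other microglia. Fcrls, an Fc receptor-like gene of microglia, stood at 1951 ± 487 against 1839 ± 418 CPM and was higher in 8 libraries. Csf1r (1587 ± 387 against 1660 ± 504 CPM) and C1qa (4637 ± 1211 against 4516 ± 1245 CPM), both used by the rule in all cells, were alike in the classes. The genes of lowest ratio outside the list were Klk8, Phgdh, Naaa, Camk2n1, Serpine2, Il1a, Ecscr and Lag3, with median log2 ratios between -2.33 and -1.63. All were picked for their ratio, and all but Phgdh and Serpine2 reached 50 CPM only through the other microglia. Being lower in members was thus fixed by the choice.

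Genes of other lists that reached 50 CPM in both classes are given by their values. Of the scavenger receptors, Lrp1 was alike in the classes, at 307 CPM in members and 303 CPM in other microglia. Of the interferon response genes, Bst2, a membrane tether of viruses, stood at 527 CPM against 243 CPM and Ifi27l2a at 396 CPM against 107 CPM, while Trim30a stood at 90.2 CPM against 70.1 CPM. Of the genes of heme and iron handling, Blvrb, a biliverdin reductase, stood at 365 CPM against 106 CPM, the iron exporter Slc40a1 at 266 CPM against 105 CPM and the ferritin heavy chain Fth1 at 6395 CPM against 4173 CPM, each higher in 12 of 12 libraries. The 34 oxidative phosphorylation genes had a median of 0.01 and the 30 proteasome subunits of -0.06, close to the -0.03 of all genes. Some genes of the border list were near 0, unlike Stab1, Dab2 and the others above: Cd163 stood at 3.22 ± 5.06 CPM and was at 0 in the members of 6 libraries, and Cd209f was found in 1 library alone. Of the antigen-presenting MHC class II genes, H2-Aa had 1 UMI in all members and H2-Ab1 stood at 2.56 ± 1.56 CPM.

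Genes of other cell types were also measured in the members. Of 15 markers of blood monocytes and granulocytes, 11 had 0 UMIs in all members, among them S100a8, S100a9, Ly6g and Mpo. Itgal, an integrin subunit of this list, was found in part of the members, as given below. The library median of the list's sum was 83.1 CPM at E13 and 46.8 CPM at E15 in members. In other microglia it was 50.2 and 18.65 CPM. In members the sum ran from 63.1 to 323.6 CPM at E13 and from 30.6 to 63.2 CPM at E15. The highest library was E13 MIA replicate 2, where Ccr2, a receptor of blood monocytes, stood at 126 CPM against 0 to 14.5 CPM elsewhere. Red blood cell markers summed to 1030 CPM in E13 MIA replicate 2, 1044 CPM in E15 MIA replicate 3 and 316.8 CPM in E15 saline replicate 3, against 5.22 to 63.0 CPM in the other 9 libraries; these 3 libraries each share over 230 barcodes with others. Neuronal markers summed to 35.4 to 89.6 CPM at E13 and 83.6 to 218 CPM at E15, and 23 members at E13 and 102 at E15 had 5 or more neuronal UMIs. Meningeal fibroblast markers stayed between 0 and 5.14 CPM, with Dcn, Lum and Ogn at 0. Of 12 lymphocyte and mast cell markers, 8 were at 0. The part of these genes in the results was not tested beyond the alternatives named below.

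Cells lay on both sides of the rule's limits. Among cells with at least 1 Mrc1 UMI and under the division limit, 514 had 1 UMI of Ms4a7, just outside, 236 had 2 and 140 had 3, just inside, and 720 had 4 or more. Pooled over cells, Pf4 stood at 14.2 CPM in cells with 0 Ms4a7 UMIs, 118 CPM with 1, 210 CPM with 2 or 3 and 1196 CPM with 4 or more. Along the same steps Ms4a6c stood at 98.6, 319, 444 and 708 CPM, while Sparc stood at 1814, 801, 522 and 292 CPM. These are sums over cells of both ages, and a changing share of cells rich in Pf4 or of E15 cells, in which Sparc was higher, cannot be told apart here from a change within cells. A further 101 cells had 2 or more Ms4a7 UMIs and no Mrc1 UMI, and 89 members had exactly 1 Mrc1 UMI. Of the members, 55 had 6 or 7 division UMIs and 31 cells just outside had 8 or 9. To set the background of free RNA, 1972 neuron-like barcodes of the same libraries were used, of which 6 (0.304%, median 2865 UMIs) had an Ms4a7 UMI, against 8.16% of the Csf1r or C1qa cells (median 10642 UMIs). None of the 1972 passed the Ms4a7 and Mrc1 limits, which allows a share of up to 0.152%.

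The members were not of 1 kind. After thinning each of the 1004 members with at least 5000 UMIs to 5000 UMIs, 510 (50.8%) had 0 Pf4 UMIs, 349 had 1 to 4, 70 had 5 to 14 and 75 (7.47%) had 15 or more. Of the 75 cells rich in Pf4, 94.7% had F13a1 and 84.0% had Lyve1, against 2.35% and 0.392% of the cells without Pf4. A barcode shared with another library was carried by 11 of the 75 cells and by 23 of the 510 without Pf4. Lyve1 averaged 9.09 UMIs per cell in these 75 cells and 0.643 in cells with 5 to 14 Pf4 UMIs. The same 75 cells had few microglial transcripts. P2ry12 averaged 0.707 UMIs per cell in them and 3.78 in the cells without Pf4. Tmem119, a membrane protein of microglia, was found in 5.33% against 53.5%. Only 3 of the 75 had 4 or more P2ry12 UMIs, against 226 of 510.

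Ms4a6c and Ms4a6b varied less over the 4 bins, unlike Dab2, which averaged 1.33 UMIs per cell without Pf4 and 10.2 with 15 or more. Ms4a6c averaged 2.76, 3.65, 3.74 and 3.6 UMIs per cell from 0 to 15 or more Pf4 UMIs, and Ms4a6b 2.12, 2.72, 3.00 and 3.04. Clec12a went the other way and was found in 18% of the cells without Pf4 and 5.33% of those with 15 or more. So did Itgal, of the blood monocyte and granulocyte list, with 24.3% against 2.67%. The 21 border genes outside the rule summed to a median of 12 UMIs in cells without Pf4 and 97 in cells with 15 or more, and the microglial identity genes to medians of 92 and 35. The bins were cut on a gene that belongs to the border list, so these sums are descriptions. The share of deep members with 5 or more Pf4 UMIs ran from 3.39% in E13 saline replicate 3 to 39.7% in E13 saline replicate 1. Of the 1004 cells, 118 lay near that limit, with 3 to 7 Pf4 UMIs.

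**Figure D2:**
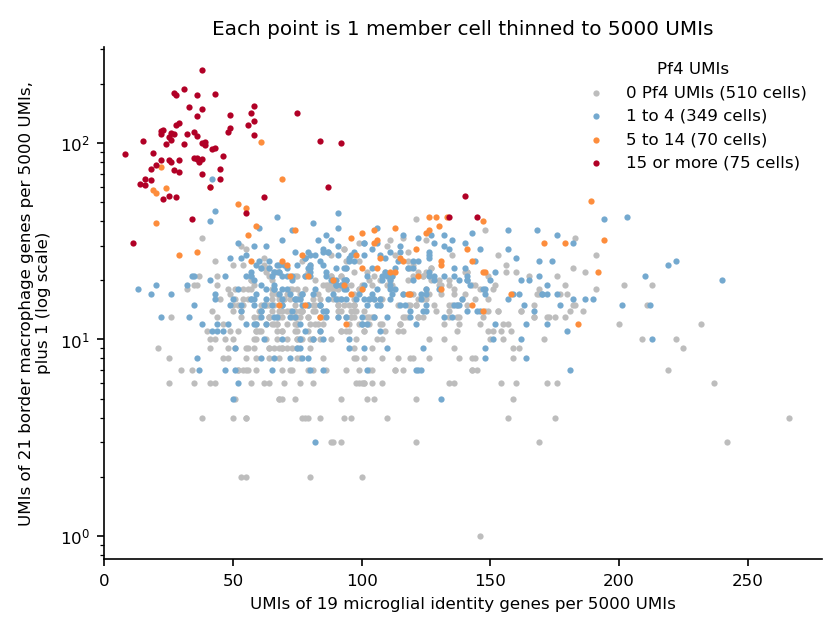
Each point is 1 of 1004 members thinned to 5000 UMIs, set by its UMIs of 19 microglial identity genes (x axis) and of 21 border macrophage genes plus 1 (y axis, log scale) and coloured by Pf4 UMIs. The 75 cells with 15 or more Pf4 UMIs lie to the upper left, with medians of 97 border and 35 microglial UMIs, and the 510 cells without Pf4 have medians of 12 and 92.

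The same rule found few cells after birth. At P14, 47 of 29554 Csf1r or C1qa cells (0.159%) passed it, and 24 of these had a barcode shared with another sorted library. The limits are in UMIs, and the other non-dividing cells had a median of 5269 UMIs at P14 against 9025 in the embryo. The part of depth in the lower share was not tested. In the 23 unshared cells, pooled, Pf4 stood at 2168 CPM and Lyve1 at 306 CPM. Cd163 stood at 241 CPM, the carbonyl reductase Cbr2 at 376 CPM and Cd209f at 129 CPM, against 4.21, 8.91 and 0 CPM in the pooled unshared embryonic members. Over all 47 cells they stood at 119, 188 and 75.3 CPM. P2ry12 stood at 3055 CPM and Sparc at 3607 CPM in the same 23 cells, from 520 and 614 UMIs, and at 1688 and 1830 CPM over all 47. These pooled values have no replicate error. No nucleus passed the rule in the 8 nuclei libraries. At least 2 UMIs of Csf1r and C1qa were found in 10, 5, 8 and 0 nuclei of the wild-type libraries and in 0, 7, 0 and 0 of the Csf1r KO libraries, saline first. By their label the KO libraries lack a gene that the rule uses, although KO saline replicate 2 held 7 nuclei past that limit. Nothing is read from the absence of passing nuclei in the KO libraries.

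The first comparison asked whether MIA or age changed the share of Ms4a7-positive cells among Csf1r or C1qa cells. At E13 the share was 7.11%, 2.40% and 2.01% in the saline libraries and 8.21%, 6.78% and 3.03% after MIA. At E15 it was 3.52%, 4.28% and 1.16% after saline and 3.33%, 4.26% and 1.14% after MIA. The groups overlapped at both ages. Averaged within age, the share was 1.04 percentage points higher after MIA, less than the spread between libraries (two-sided exact permutation test over 12 libraries, treatment permuted within age, p = 0.41). With cells thinned to 5000 UMIs the difference was 0.765 points (p = 0.52), and with shared barcodes left out 0.0614 points (exact permutation p = 0.975). The E13 MIA mean went from 6.00 ± 2.68% to 4.21 ± 2.97% (SD, n = 3) without shared barcodes.

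Between ages the mean share was 4.92 ± 2.74% at E13 and 2.95 ± 1.44% at E15 (SD, n = 6 each). The difference of -1.97 points did not pass the two-sided exact permutation test (p = 0.15), nor did the thinned one of -1.61 points (p = 0.255). Of 400 arrangements the smallest p possible was 0.005. At E15 replicate 3 was the lowest of both groups, at 1.16% and 1.14%.

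**Figure D3:**
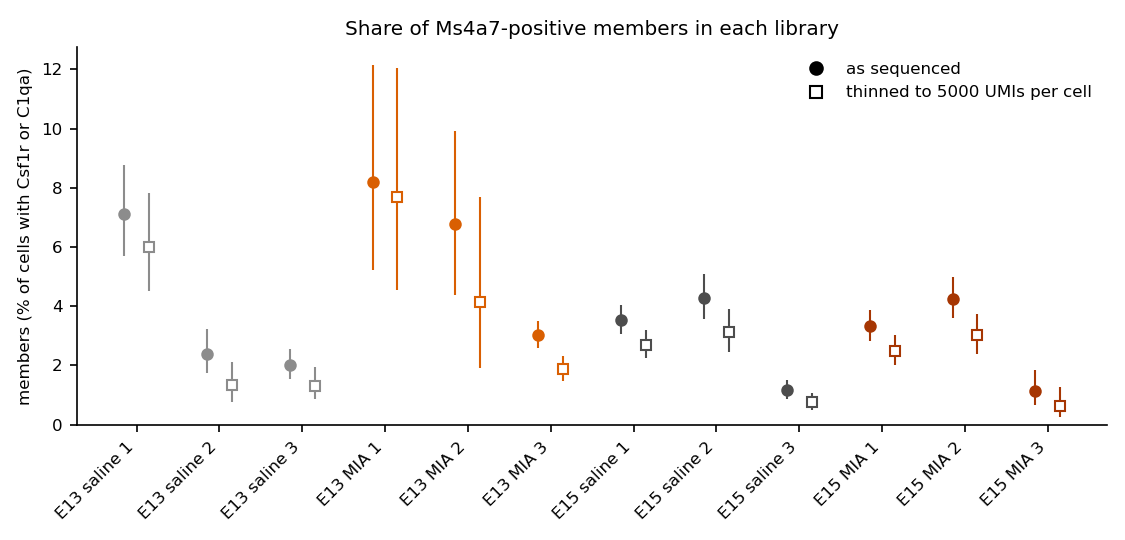
Share of members among cells with Csf1r or C1qa in each library, in percent, as sequenced (filled circles) and after thinning to 5000 UMIs (open squares), with exact Clopper-Pearson 95% intervals that cover counting error alone. The shares run from 1.14 to 8.21% as sequenced, and saline and MIA libraries overlap at both ages.

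The share of dividing cells among cells positive for Ms4a7 and Mrc1 did differ with age. In cells thinned to 5000 UMIs, 20 of 71, 13 of 30 and 6 of 31 cells of the E13 saline libraries and 5 of 22, 0 of 9 and 33 of 113 of the E13 MIA libraries had 8 or more division UMIs. At E15 the numbers were 19 of 139, 1 of 74 and 0 of 28 after saline and 4 of 99, 2 of 84 and 0 of 7 after MIA. Library shares averaged 23.8 ± 14.3% at E13 and 3.57 ± 5.18% at E15 (SD, n = 6 each), a fall of 20.2 points (two-sided exact permutation test, p = 0.02). The libraries overlapped, since E13 MIA replicate 2 had 0 of 9 (exact Clopper-Pearson upper bound 33.6%) and E15 saline replicate 1 had the highest E15 share. The difference was -37.4 points in cells as sequenced (exact permutation p = 0.005) and -26.6 points with shared barcodes left out (exact permutation p = 0.005, the smallest that 200 arrangements give), where E13 MIA replicate 2 had no such cell and dropped out. In cells thinned to 3000 UMIs it was -8.47 points and did not pass (exact permutation p = 0.085). Among all Csf1r or C1qa cells, as sequenced, 32.5 to 46.4% had 8 or more division UMIs at E13 and 7.30 to 31.3% at E15. The fall was thus not particular to the Ms4a7-positive cells.

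Next, MIA was compared with saline on UMIs summed over the members of each library. At E13, 7974 genes were tested and none was called (0% of genes; edgeR quasi-likelihood test with Benjamini-Hochberg adjustment, threshold 0.05), while 142 had an unadjusted p under 0.05. At E15 none of 8742 genes was called (0%), and 62 had an unadjusted p under 0.05. The interaction of age and treatment called none of 8952 genes (0%), with 118 at an unadjusted p under 0.05. DESeq2 likewise called 0 genes in each of the 3 comparisons. Sex was uneven at E13: an Xist or Tsix UMI, a mark of female cells, was found in 4 of 63 members of saline replicate 3. It was found in 46 of 80 and 18 of 42 in saline replicates 1 and 2. After MIA it was found in 11 of 22, 11 of 24 and 87 of 177. The part of sex was not tested beyond the sums split by sex.

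Interferon response genes leaned to one side at E13, which was not tested as a list. Of 25 tested, 23 had a positive log2 fold change after MIA, with a median of 0.60 against 0.01 for all genes, and none was called. Immediate early and dissociation genes, which mark handling of cells, leaned the same way, with 13 of 14 positive, a median of 0.27 and none called, and their part in the interferon values was not tested. Isg15, a ubiquitin-like protein made in response to interferon, stood at 35.4, 12.4 and 14.3 CPM in the E13 saline libraries and at 58.6, 65.1 and 55.0 CPM after MIA. The groups did not overlap for Isg15, with a log2 fold change of 1.44 (SE 0.31, edgeR adjusted p = 1). Irf7, a transcription factor of the interferon response, stood at 9.66, 4.12 and 14.3 CPM against 19, 26.5 and 26.1 CPM, also without overlap (log2 fold change 1.32, SE 0.36, edgeR adjusted p = 1). Both were named after their values were seen. The lean was smaller with shared barcodes left out: 15 of 22 genes were positive, with a median of 0.20 against -0.05 for all genes. That setting kept 10 members of E13 MIA replicate 1 and 2 of replicate 2. The loss of cells cannot be told apart there from the removal of shared barcodes. Without E13 MIA replicate 2 the median was 0.36. At E15, 3 of 23 interferon genes were positive, with a median of -0.18.

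Some settings made calls for MIA. With no filter on low counts E13 gave 30 calls in edgeR. With shared barcodes left out, E13 gave 21 calls in edgeR, 6 higher and 15 lower after MIA, with E13 MIA replicate 2 reduced to 2 cells. The lower ones included Lyve1 (log2 fold change -3.10), F13a1 (-2.97) and Folr2 (-1.24), and the higher ones Isg15 (1.48) and Irf7 (1.35). Without E13 saline replicate 1, the library richest in Pf4, E13 called 2 genes, Isg15 (2.08) and Nme2 (2.31). Without E13 MIA replicate 3 it called 4, Gm11808 (1.26), Hspa1a (4.65) and Hspa1b (6.07) higher and Spp1 (-2.93) lower. With the replicate number as a block, E13 called Ccl4 (1.91) and Hspa1a (4.06), and the interaction called Gpnmb (5.03), Fos (4.22), Egr1 (3.92) and Ccl4 (-2.38). At E13, Isg15, Nme2, Ccl4, Hspa1a and Spp1 were called in 3 of these 5 settings each, Spp1 in both directions. For MIA at E15 the blocked fit called none.

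Age gave many calls where MIA gave none, but the numbers are not on equal terms. The age contrast set 6 libraries against 6, and each MIA test within an age 3 against 3. Between E13 and E15, with treatment in the model, 1263 of 8952 genes (14.1%) were called by edgeR, of which 594 (6.64%) were higher and 669 (7.47%) lower at E15. Microglial identity genes rose together: 14 of 20 tested were higher and none lower, with a median log2 fold change of 0.68 against -0.01 for all genes. Crybb1, a crystallin gene that marks maturing microglia, stood at 155.8, 154.5, 303.8, 109.3, 91.6 and 177.8 CPM in the E13 libraries, saline first, and at 846.3, 969.4, 1044, 1661, 939.6 and 534.9 CPM at E15. The ages did not overlap (log2 fold change 2.69, SE 0.25, edgeR adjusted p = 3.68e-06). Sparc ran from 99.8 to 193.4 CPM at E13 and from 414.7 to 728.1 CPM at E15, again without overlap (1.94, SE 0.17, adjusted p = 1.74e-06 in edgeR). P2ry12 rose from 512 ± 91.9 to 788 ± 97.4 CPM (0.70, SE 0.15, edgeR adjusted p = 0.00407) and Tmem119 from 135 ± 22.8 to 197 ± 28.0 CPM. Cst3, Fcrls, Gpr34, Olfml3, Siglech, Slc2a5, Trem2 and Tspan7 were also among those called. Csf1r is counted in the 14, but the rule used it, so its call is no finding. Sall1 (log2 fold change 0.31) and Cx3cr1 (0.25) did not pass. With shared barcodes left out 8 of 20 were called, and in members with 0 division UMIs 6 of 19.

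Of 19 border macrophage genes tested, Cbr2 alone was called, beside 6.64% of all genes called higher, so the count says nothing particular of the list. Cbr2 was higher at E15 (log2 fold change 2.22, SE 0.38, edgeR adjusted p = 0.000954), and the median of the list was 0.06. Pf4 averaged 1022 ± 909 CPM at E13 and 830 ± 530 CPM at E15 (SD, n = 6), so its spread within an age was wider than the difference. Lyve1 and F13a1 had log2 fold changes of -0.64 (SE 0.61) and -0.33 (SE 0.57), Mrc1 of 0.23 (SE 0.26) and Ms4a7 of 0.46 (SE 0.20), none of them called. The rule used Mrc1 and Ms4a7, which are in the list and its median, and nothing is read from their values. With E13 saline replicate 1 left out the median of the list was 0.43, and without E13 MIA replicate 3 it was -0.20.

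Genes of DNA replication fell. Members were chosen on late division genes, yet S phase transcripts could still be read in them. Lower at E15 were 20 of 22 S phase genes, beside 7.47% of all genes, with a median log2 fold change of -1.49. Mcm5, a subunit of the replicative helicase, stood at 95.3, 95.8, 95.7, 39.6, 134.3 and 73.7 CPM at E13 and at 35.1, 13.4, 17.5, 11, 15.9 and 10.3 CPM at E15, without overlap (log2 fold change -2.22, SE 0.26, edgeR adjusted p = 3.47e-05). E15 saline replicate 1, the library with many dividing cells, held the highest of the E15 values. Uhrf1, which keeps DNA methylation through replication, had a log2 fold change of -2.49 (SE 0.32, edgeR adjusted p = 8.49e-05), and the helicase subunits Mcm2 and Mcm6 had -1.91 and -1.76. The members with 0 division UMIs gave 10 of 13 S phase genes lower, with a median of -1.62. Other microglia fell alike: the sum over the list had a library median of 1489 CPM at E13 and 494 CPM at E15. In members it was 1293 and 410 CPM. None of the 22 genes was called in the comparison of age changes between classes below. Among the 10 genes with the largest fall were also Hells, Dtl, the RNA-binding protein gene Igf2bp1, AY036118, Ifi27l2a and Ifitm3. AY036118 overlapped between ages, at 217 to 1343 CPM at E13 and 29.2 to 597 CPM at E15 (edgeR adjusted p = 0.0447), and did not pass in 9 of 23 alternatives, while Hells, Ifitm3 and, among the genes that rose, Matk did not pass in 1 each. Among the 10 with the largest rise were also the leukotriene synthase Ltc4s (1.78), the inhibitory Fc receptor Fcgr2b (1.67), Tmem52, Ecscr, Pla2g7, Crebrf, Matk and Csad, with log2 fold changes from 1.55 to 1.90.

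The 250 bases before the start of Mcm5 (chr8:75109259-75109508, plus strand, GRCm38.p6, RefSeq) are shown in the direction of the gene because S phase genes moved together. Capitals mark the letters TTT and CGC separated by any 2 bases, as at the core of E2F sites, searched on both strands. The 2 matches, 1 on each strand, overlap and lie 153 to 149 bases before the start, counted at their first bases.
Mcm5: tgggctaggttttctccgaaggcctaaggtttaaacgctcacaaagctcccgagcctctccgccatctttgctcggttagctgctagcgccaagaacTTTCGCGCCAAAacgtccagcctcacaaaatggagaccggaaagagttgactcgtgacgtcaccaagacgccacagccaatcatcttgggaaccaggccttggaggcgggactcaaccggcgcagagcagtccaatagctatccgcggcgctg
Of the 20 S phase genes that fell, 16 matched a sequence, and 6 of these held the letters on either strand (Cdc6, Hells, Mcm5, Mcm6, Mcm7 and Uhrf1), as did 4.94% of 27025 genes with such a sequence.

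Further groups moved in part, to be read beside the 6.64% of all genes called higher and 7.47% called lower at E15. Of 26 interferon response genes, 6 were lower at E15 and none higher, with a median log2 fold change of -0.55: Zbp1 (-2.24), Ifi27l2a (-2.01), Ifitm3 (-1.75), Rtp4 (-1.14), Isg15 (-1.12) and Lgals3bp (-0.86). Ifitm3 was highest in E13 MIA replicate 2, at 507 CPM against 49.4 to 151 CPM in the other E13 libraries. The age contrast averages over treatment. After saline, Isg15 overlapped between ages, at 35.4, 12.4 and 14.3 CPM at E13 and 11.1, 18.4 and 13.6 CPM at E15. After MIA, Isg15 stood at 58.6, 65.1 and 55.0 CPM at E13 and 15.3, 14.3 and 36 CPM at E15. Of 10 complement genes, 5 rose (C1qa, C1qb, C1qc, C5ar2 and Itgam). The rule used C1qa, so its rise is no finding. Of 25 lysosome and lipid genes, 12 rose, among them Apoe (0.76), Ctsd and Lamp1, and Ctsc (-0.46) and the lipase Lpl (-1.09) fell. The proteasome had 9 of 30 subunits lower and oxidative phosphorylation 15 of 34 lower and 1, Uqcrh, higher. Of the transcription factors listed, Mef2a and Id2 rose while Hes1 fell. Of 8 neuronal genes tested, 6 were higher at E15, among them Stmn2 (3.02), as in the sums above, and their part in the other changes was not tested. Without members that had 5 or more neuronal UMIs, 1174 genes were called.

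**Figure D4:**
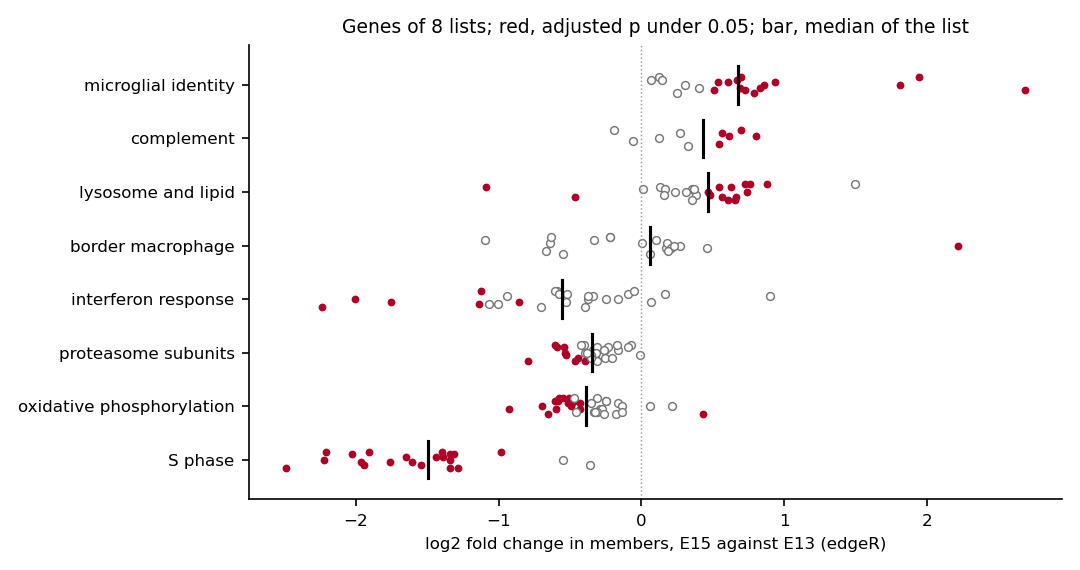
Log2 fold change in members at E15 against E13 (x axis, edgeR) for the genes of 8 lists, with genes past the threshold in red and the list's median as a bar. Microglial identity genes lie to the right (median 0.68), S phase genes to the left (median -1.49), and the border macrophage genes spread about 0 (median 0.06).

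The number of age calls depended on single libraries. It was 731 without E15 saline replicate 2, 789 without E13 saline replicate 1 and 795 without E15 MIA replicate 2, and between 950 and 1326 without each of the others. With members chosen after thinning to 5000 UMIs it was 607.

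The last comparison asked whether members changed from E13 to E15 in another way than other microglia of the same libraries. A model with a term per library found 77 of 10550 genes (0.73%) with a different age change (edgeR), 49 (0.464%) with a higher and 28 (0.265%) with a lower change in members. Pla2g7, which degrades platelet-activating factor, stood at 40.6, 15.5, 40.0, 57.0, 50.9 and 48.4 CPM at E13 and at 112.1, 129.4, 79.7, 160.3, 142.3 and 20.6 CPM at E15 in members, and at 22.5 ± 7.04 and 19.5 ± 5.51 CPM in other microglia. The difference in log2 fold change was 1.70 (SE 0.19, edgeR adjusted p = 1.9e-05), and E15 MIA replicate 3 lay within the E13 range. Gpr65 stood at 191 ± 37.1 and 140 ± 57.1 CPM in members at the 2 ages and at 38.3 ± 7.90 and 10.0 ± 3.07 CPM in other microglia, a difference of 1.45 (SE 0.17, edgeR adjusted p = 1.9e-05). Cybb went from 204 ± 22.2 to 160 ± 42.0 CPM in members and from 48.2 ± 15.0 to 14.5 ± 4.67 CPM in other microglia (difference 1.34). Itga4 was at 84.0 ± 17.9 and 94.8 ± 29.7 CPM in members and at 15.2 ± 3.14 and 6.88 ± 1.44 CPM in other microglia (1.23). For Gpr65, Cybb and Itga4 the E15 level of other microglia lay below their E13 level, while the members' mean at E15 was 140, 160 and 94.8 CPM.

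Of 25 lysosome and lipid genes, Apoe alone was called, and the median was -0.05 against -0.02 for all genes. Apoe was at 17850 ± 1140 and 28860 ± 5208 CPM in members and at 7265 ± 690 and 7756 ± 1285 CPM in other microglia (difference in log2 fold change 0.62, SE 0.07, edgeR adjusted p = 2.81e-05). Apoc1, another apolipoprotein gene and not on that list, was at 282 ± 104 and 401 ± 125 CPM against 115 ± 31.0 and 77.4 ± 8.81 CPM (1.22). Of the border list, Lyve1 (1.97), Pf4 (1.20) and Ms4a6c (0.97) were higher and Ednrb (-1.36) lower, of 19 tested. Ms4a6c had the smallest p of all (edgeR adjusted p = 1.69e-05), with 567.6 ± 73.1 and 646 ± 114 CPM in members and 99.7 ± 13.4 and 60.3 ± 16.5 CPM in other microglia. Lyve1 was at 273 ± 298 and 156 ± 124 CPM in members and at 3.12 ± 2.95 and 0.649 ± 0.520 CPM in other microglia, close to 0 in the latter at both ages. It turned to -0.36 in cells with 0 division UMIs. Ms4a7, which the rule used, also differed (1.48) and is no finding. Cells under the Ms4a7 limit counted as other microglia. Those with 1 Ms4a7 UMI and at least 1 Mrc1 UMI held Pf4 at 118 CPM and Ms4a6c at 319 CPM. Other microglia had a median of 5374 UMIs at E13 and 9453 at E15, so the fixed limit met unlike depths. The part of such cells in the age differences between classes was not tested beyond the alternatives.

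Interferon genes were among the lower ones. Of 31 tested, 7 had a lower age change in members, beside 0.265% of all genes, and none a higher one. The median was -0.70 against -0.02 for all genes. Isg15 went from 40.1 ± 23 to 18.1 ± 9.07 CPM in members and from 24.9 ± 19.4 to 42.3 ± 25.4 CPM in other microglia, a difference of -2.32 (SE 0.36, edgeR adjusted p = 0.000836). The E13 mean of members joins 35.4, 12.4 and 14.3 CPM after saline with 58.6, 65.1 and 55.0 CPM after MIA. Ifitm3 went from 173 ± 167 to 47.8 ± 24.3 CPM in members and from 30.01 ± 7.49 to 56.5 ± 25.6 CPM in other microglia (-2.40, SE 0.34, edgeR adjusted p = 0.000267). The other 5 were Ifi27l2a, Ifit2, Irf7, Lgals3bp and Phf11d. The number of interferon genes called was 3 without E13 MIA replicate 3, 4 without E15 saline replicate 2 or without E15 MIA replicate 2, and 13 without E15 saline replicate 1, where Isg15 in other microglia stood at 14.2 CPM against 26.6 to 88.3 CPM in the other E15 libraries. With members chosen after thinning it was 1, with a median of -0.66.

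The bases before Isg15 (chr4:156200819-156201068, minus strand, GRCm38.p6, RefSeq) are shown in the direction of the gene because the gene carries this contrast, and capitals mark pairs of GAAA separated by any 2 bases, the repeat of interferon-stimulated response elements, searched on both strands. The 3 matches overlap, lie on the strand shown and begin 78 to 66 bases before the start.
Isg15: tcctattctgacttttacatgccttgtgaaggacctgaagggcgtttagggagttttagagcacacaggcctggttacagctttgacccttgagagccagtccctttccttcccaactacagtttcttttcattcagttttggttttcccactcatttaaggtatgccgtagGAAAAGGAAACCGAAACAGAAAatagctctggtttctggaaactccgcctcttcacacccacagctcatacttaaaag
Of the 32 interferon genes listed, 23 matched a sequence and 10 of these held the letters on either strand, as did 3.46% of 27025 genes. Of the 6 that fell with age in members, 3 matched a sequence and Isg15 alone of these held them.

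Of 17 scavenger and lectin receptors tested, Lyve1 was called with a higher and Clec4a1 and Clec4a3 with a lower age change in members. Clec12a, not on that list, was among the called genes. Clec12a (difference 2.16) was at 52.9 ± 14.8 and 48.8 ± 16.3 CPM in members and at 5.08 ± 4.78 and 0.846 ± 0.511 CPM in other microglia. Clec4a1 (-1.72) was at 44.6 ± 24.3 and 35.7 ± 17.2 CPM in members and at 3.31 ± 0.760 and 10.9 ± 1.85 CPM in other microglia. Clec4a3 (-1.18) was at 32.8 ± 14.4 and 61.6 ± 20.6 CPM in members and at 8.21 ± 1.83 and 40.1 ± 5.50 CPM in other microglia. Among the microglial identity genes none of 19 was called: P2ry12 had a difference of -0.33 (SE 0.11, edgeR adjusted p = 0.254) and Sparc of -0.05 (SE 0.12, edgeR adjusted p = 0.961). For P2ry12 the means were 512 in members against 1043 CPM in other microglia at E13 and 788 against 2083 CPM at E15. By DESeq2, 110 genes were called, 86 higher and 24 lower, of which 33 were shared with the 77.

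**Figure D5:**
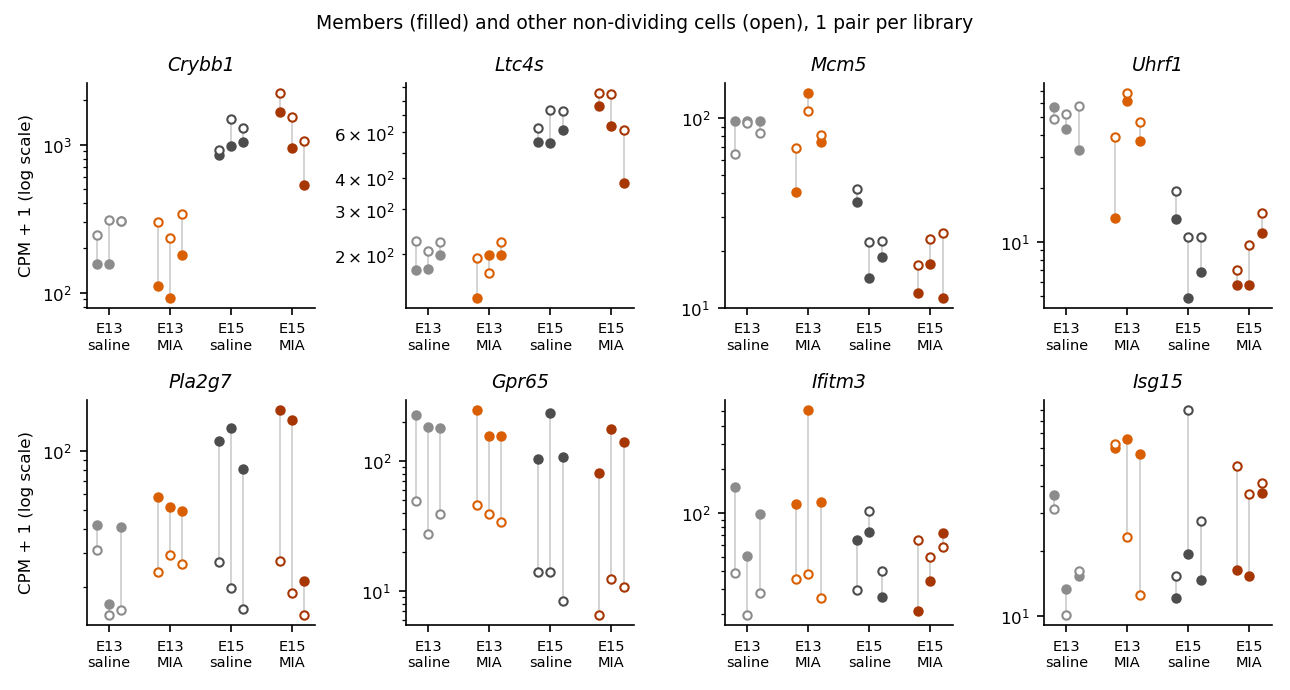
Level of 8 genes in members (filled) and other non-dividing microglia (open) of each library, as CPM + 1 on a log axis, by age and treatment. Crybb1 and Ltc4s lie higher and Mcm5 and Uhrf1 lower at E15 in both classes, while Pla2g7, Gpr65, Ifitm3 and Isg15 differ between the classes in their age change, with E15 MIA replicate 3 low for Pla2g7 in members.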

How the data were processed

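Single cells were sorted from S1 cortex and sequenced, and each deposited matrix holds raw, unnormalized UMI counts. Per the labels the authors aligned reads to mm10 with Cell Ranger 3.1.0, while the study's methods name a later release. Members were chosen by the UMI limits given above, sums of UMIs for each class in each library were fitted with edgeR 4.0.16 (TMM, filterByExpr, quasi-likelihood, Benjamini-Hochberg, threshold 0.05) in R 4.3.3. Shares were tested by exact permutation over libraries. Intervals and floors (3 counts) cover counting error alone. Members and gene lists were chosen with earlier results of these data known. Named genes were the 15 highest and 10 lowest ratios to other microglia at 50 CPM or more (log2 of CPM + 1), and per edgeR comparison the 10 largest changes in each direction among called genes of at least 20 CPM, without sex-linked and globin genes. Doublets were kept in the main analysis (15 members had high Scrublet scores) and removed in an alternative. Deviations of same-numbered saline and MIA libraries had correlations of 0.364, 0.143 and 0.17 at E15 and 0.165, -0.04 and 0.233 at E13. These ranges overlap, so the check does not settle whether the numbers pair libraries at either age, and the labels do not say. Alternatives were DESeq2 1.42.0 and its size factors, no filter on low counts, other gates, thinning, the replicate block, sums split by the sex of the cell and leaving out libraries. Fits were tested on simulated data. Those on shared barcodes, Pf4, neuronal UMIs and 0 division UMIs were chosen after seeing the data. Promoters were 250 bases of RefSeq sequence (GRCm38.p6). Results on some genes are not reported here.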

Additional observations from a re-analysis of the deposited data

Results flagged for a closer look

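Genes whose change from E13 to E15 differed between the Ms4a7-positive cells and other microglia, by the class by age term of the edgeR fit, numbered 77. The named ones with a higher change in the Ms4a7-positive cells, as differences in log2 fold change, were Clec12a (2.16), Lyve1 (1.97), Pla2g7 (1.70), Gpr65 (1.45), Cyp4f18 (1.41), Cybb (1.34), Adgre5 (1.29), Itga4 (1.23), Apoc1 (1.22) and Pf4 (1.20). Those with a lower change were Ifitm3 (-2.40), Isg15 (-2.32), Clec4a1 (-1.72), Ednrb (-1.36), Fscn1 (-1.26), Clec4a3 (-1.18), Ifi27l2a (-0.85), Klf7 (-0.76), Selplg (-0.69) and Fyn (-0.67). A higher change was not always a rise: Clec12a, Lyve1, Gpr65, Cyp4f18, Cybb, Adgre5 and Pf4 had a lower mean at E15 in members too. The means of these genes fell by a larger factor in other microglia, where Clec12a and Lyve1 were near 0 at E15. Other microglia include cells just under the Ms4a7 limit, whose part in these differences was not tested beyond the alternatives. Pla2g7, Gpr65, Cybb, Itga4, Apoc1, Isg15 and Fscn1 passed the threshold in the same direction in all 24 alternatives. Fyn did not pass in 14, Ednrb in 13, Lyve1 in 10, Adgre5 in 9 and Selplg in 6 of the 24. Clec4a1, Clec4a3 and Klf7 did not pass in 2 each, and Clec12a, Cyp4f18, Pf4, Ifitm3 and Ifi27l2a in 1 each. Clec4a1 did not pass without the members rich in Pf4 (-0.93, edgeR adjusted p = 0.181). Over the 24 alternatives its difference ran from -2.47 to -0.63, with an adjusted p of up to 0.821 (edgeR or DESeq2).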

How the results depend on the processing

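Of the results on shares and counts of called genes, 137 alternative values stayed like the main one, 10 gave more calls, 11 fewer or a lost call, and 1 turned. For shares, alike means the same direction and side of the threshold. For counts it means a similar number of calls, and the called genes can differ. The share after MIA minus saline turned to -0.063 points in cells thinned to 3000 UMIs and was 1.04 points with the replicate block (exact permutation p = 0.25). Leaving out 1 library at a time gave 0.49 to 1.86 points for MIA, -2.72 to -1.16 points for age and -24.6 to -17.0 points for the dividing share, which was -8.47 points in cells thinned to 3000 UMIs. With no filter on low counts, edgeR called 30 genes for MIA at E13, 15 at E15, 14 for their interaction and 182 for class by age. For MIA at E13 the replicate block gave 2 calls, shared barcodes left out gave 21, and leaving out 1 library gave 0 to 4, with 2 without E13 saline replicate 1 and 4 without E13 MIA replicate 3. The block gave 4 calls for the interaction. For E15 against E13, calls numbered 607 with the gate set on thinned cells, 782 with the stricter gate (Ms4a7 at least 4 UMIs, Mrc1 at least 2), 236 in members with 0 division UMIs, and 731 to 1326 without 1 library. For class by age they numbered 38, 78 and 43 in the same settings, 40 without the 3 embryonic libraries that share most barcodes, and 47 (without E15 saline replicate 2) to 118 (without E15 saline replicate 1) without 1 library. Lyve1 alone of the named genes turned, to -0.36, in cells with 0 division UMIs, where fewer cells were summed. The cause of these changes was not tested. The block changed no other call. The smallest libraries held 22 and 24 members (E13 MIA replicates 1 and 2) and 16 (E15 MIA replicate 3), and the part of cell number in the MIA comparisons was not tested.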
